A study of Equus caballus with 6 samples.

Results

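Expression of 6 genes of blood monocytes and of innate sensing was followed in leukocytes of 3 horses before and after exercise. They were CD14, TLR2, TLR4, CSF1R, CD68 and ACP5. The genes were taken by name, and their probes are those that the array files assign to a RefSeq transcript of one of the 6 genes. This gave 7 probes, 2 for TLR4 and 1 for each of the others, out of 43603 probes on the array, of which 1979 could be named as one of 870 genes. Each of the 7 probes was well above background on all 6 arrays, so all 6 genes could be measured in every sample.

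Monocytes are circulating phagocytes that patrol blood and enter tissue, where they become macrophages. CD14 is their classical surface marker and hands bacterial lipopolysaccharide to TLR4, which signals together with its partner LY96 (MD-2). TLR2 senses bacterial lipoproteins as a dimer with TLR1 or TLR6. Both receptors are also found on neutrophils, and both lead through adaptor proteins to NF-kB and cytokine genes. CSF1R is the receptor for the growth factor that keeps monocytes and macrophages alive, CD68 is a glycoprotein of their lysosomes, and ACP5 is the tartrate-resistant acid phosphatase of osteoclasts and activated macrophages. In bulk RNA, fewer cells of a type and less RNA per cell cannot be told apart.

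The cells came from the buffy coat, the layer of white cells in centrifuged jugular blood, of neutered male warmblood horses numbered 1, 2 and 4 in the labels. Each horse gave 1 sample before and 1 after exercise, which makes 3 arrays in each group. The sample labels give ages of 11, 7 and 15 years for horses 1, 2 and 4, whereas the series' design text gives a range of 9 to 17 years, and the difference is not resolved here. The time of the second sample is likewise unsettled, as its label says 60 min and the protocol speaks of blood drawn directly after the exercise. No other treatment or genotype is named, and the labels say nothing of sorting, so the samples hold all leukocytes of the layer with whatever red cells and platelets came with them. The question was which leukocyte transcripts differ after exercise.

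Levels are given as the log2 of an array's processed signal minus the log2 of that array's 75th percentile, so that 0 is the 75th percentile of the array and a difference of 1 is a doubling of signal. Levels of different probes are not set against each other, because probes differ in how well they bind. The 75th percentile itself lay between 1124 and 2536 signal units, lowest on the array of horse 4 after exercise. No spot was saturated, and the share of spots well above background ran from 64.1% to 69.4%. The arrays lay on 2 slides: the samples of horses 1 and 2 before exercise on slide 2 and the other 4 arrays on slide 1. The change of horses 1 and 2 thus spans both slides, and that of horse 4 lies within slide 1. Spots of the same probe on the same array had a median SD between 0.065 and 0.087 (log2) over 25 to 28 probes printed more than once, which measures spotting and scanning, not the animals.

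CD14 was the gene with the widest spread over the 6 arrays, a range of 1.76. Before exercise its level was 3.78 in horse 1, 2.82 in horse 2 and 4.18 in horse 4, and after exercise it was 4.57, 3.66 and 3.41 in the same order. Horse 4 therefore had the highest of the 3 levels before exercise and the lowest after it, and the groups overlapped. The group means were 3.59 ± 0.70 (SD, n = 3) before and 3.88 ± 0.61 (SD, n = 3) after. Its signal stood at least 858 times above the local background on every array.

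TLR4 was read by 2 probes, and both gave the same picture. By its brighter probe the level before exercise was 2.74, 1.96 and 2.81 in horses 1, 2 and 4, and after exercise 3.06, 2.91 and 2.34. By the dimmer probe it was 2.21, 1.63 and 2.48 before and 2.41, 2.25 and 2.07 after. With either probe horse 2 before exercise was the lowest of the 6 samples, and with either probe horse 4 moved from the highest of its group to the lowest. The means of the brighter probe were 2.50 ± 0.47 before and 2.77 ± 0.38 after (SD, n = 3 each).

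TLR2, the other toll-like receptor of the set, had the narrowest range, 0.58 over the 6 arrays. Its level was 4.10, 3.62 and 4.02 before exercise in horses 1, 2 and 4, and 3.78, 3.87 and 4.20 after. All 6 samples lay close together, and the group means of 3.91 ± 0.26 and 3.95 ± 0.22 (SD, n = 3 each) were nearly equal. Here horse 1 was the animal that was lower after exercise.

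The levels of CSF1R were ordered by horse rather than by time point. Its level was -0.97 in horse 1, -2.18 in horse 2 and -1.40 in horse 4 before exercise, and -0.70, -1.96 and -1.69 after. Both samples of horse 1 were above both of horse 4, and both of horse 4 were above both of horse 2. The group means were -1.52 ± 0.61 before and -1.45 ± 0.66 after (SD, n = 3 each). The difference between horses was not called (limma moderated F-test, adjusted p = 0.21). In that test 15.5% of all probes had an unadjusted p under 0.05.

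CD68 had a signal 14.7 to 35.2 times that of its local background. Its level was -2.48, -2.09 and -2.80 before exercise in horses 1, 2 and 4, and -1.72, -2.53 and -2.31 after. Horse 2 was the one animal in which CD68 was lower after exercise, the reverse of its CD14 and TLR4. The group means were -2.46 ± 0.35 and -2.19 ± 0.42 (SD, n = 3 each).

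ACP5 was spread widely before exercise and lay close together after it. Its level was 0.98, 0.19 and 1.88 in horses 1, 2 and 4 before exercise, and 1.42, 1.26 and 1.38 after. The 3 samples after exercise all fell between the lowest and the highest of those before. The SD was 0.84 before and 0.09 after (n = 3 each), around means of 1.02 and 1.35, and the difference in spread was not tested.

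**Figure D1:**
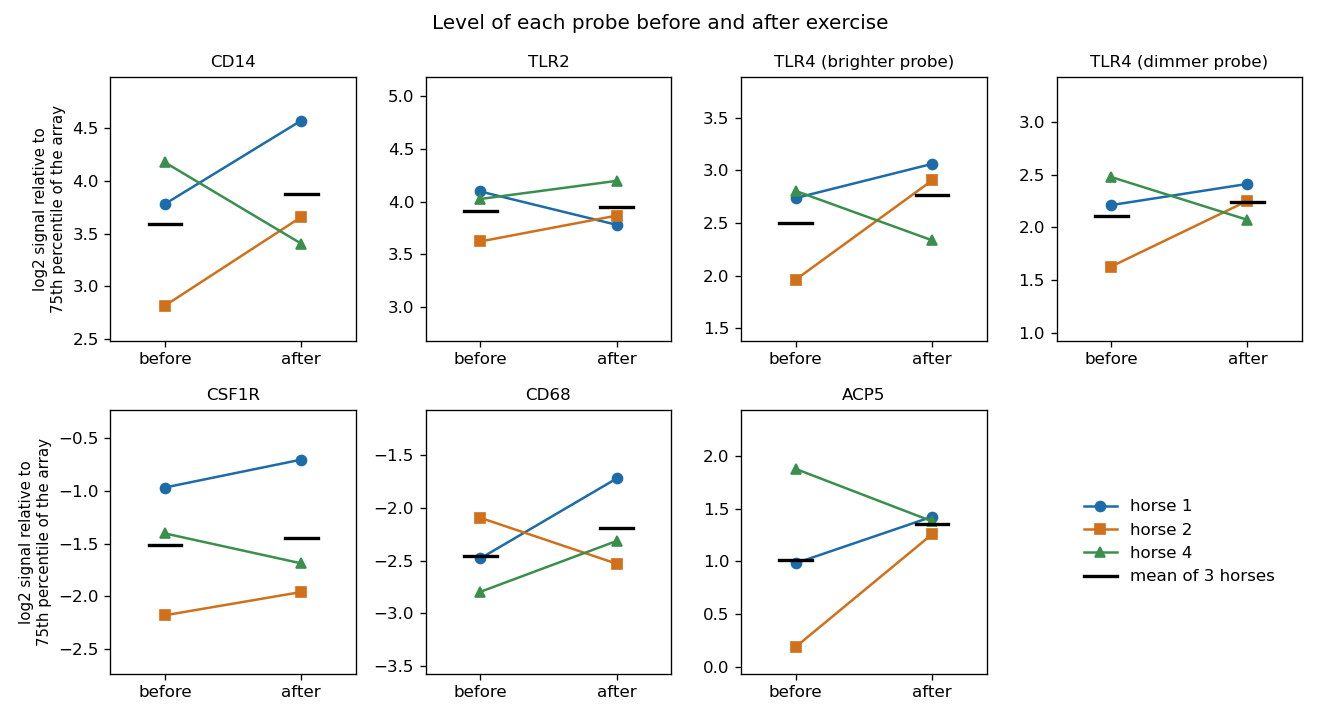
Level of the 7 probes in each horse before and after exercise (log2 signal relative to the 75th percentile of the array, every panel spanning 2.5 units). Coloured points joined by lines are the samples of one horse, and black bars are the means of 3 horses; CD14, both TLR4 probes, CSF1R and ACP5 slope upward in horses 1 and 2 and downward in horse 4, while TLR2 and CD68 do not follow that order.

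After exercise none of the 6 genes passed the test. Groups were compared with limma with the horse as a block, so that each animal was set against itself, and p-values were adjusted by Benjamini-Hochberg over all 29555 probes tested. On the whole array limma called 0 of these probes (0%) at an adjusted p under 0.05, and 1792 (6.06%) had an unadjusted p under 0.05, while none of the 7 probes here did. The groups before and after overlapped for 6 of 6 genes, where 7.31% of probes on the array did not overlap.

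The mean log2 changes were small against their errors. ACP5 had 0.34 (SE 0.34, 95% interval -0.56 to 1.23, limma adjusted p = 0.80), CD14 0.29 (SE 0.38, -0.73 to 1.30, adjusted p = 0.84) and CD68 0.27 (SE 0.28, -0.48 to 1.02, adjusted p = 0.81). TLR4 had 0.27 by its brighter probe (SE 0.31, -0.55 to 1.08, adjusted p = 0.82) and 0.14 by its dimmer one (SE 0.25, -0.52 to 0.80, adjusted p = 0.88). The changes of CSF1R, 0.07 (SE 0.19, -0.43 to 0.56, adjusted p = 0.93), and of TLR2, 0.03 (SE 0.19, -0.46 to 0.53, adjusted p = 0.97), were the nearest to 0. The median over the 6 genes was 0.27, beside 0.04 over all probes tested. As ratios of signal, the intervals allow a TLR2 level after exercise between 0.72 and 1.45 times that before, and for CD14 between 0.60 and 2.46 times, which covers changes of either sign.

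**Figure D2:**
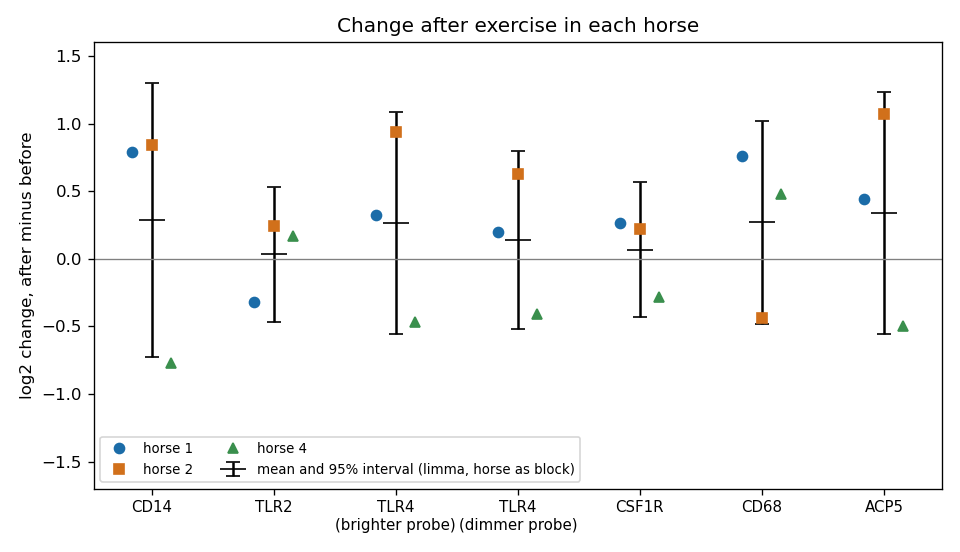
Log2 change after exercise (after minus before) of each probe in horses 1, 2 and 4, with the mean and its 95% interval from limma in black. Every interval spans 0; the points of horse 4 lie below 0 for CD14, TLR4, CSF1R and ACP5, where those of horses 1 and 2 lie above it.

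Behind these means the horses differed in direction. CD14 was 1.73 times higher after exercise in horse 1 (log2 change 0.79) and 1.79 times higher in horse 2 (0.84), but 1.71 times lower in horse 4 (-0.77). TLR4 had changes of 0.32, 0.94 and -0.47 in horses 1, 2 and 4 by its brighter probe and of 0.20, 0.62 and -0.41 by its dimmer one. ACP5 had 0.44, 1.07 and -0.50, and CSF1R a smaller 0.26, 0.22 and -0.28. Thus 4 of the 6 genes, and 5 of the 7 probes, were higher in horses 1 and 2 and lower in horse 4. Among 29351 probes with a value on all arrays, 24.1% had that order of signs, the most frequent of the 8 possible ones. With 1 pair per horse, whether the animals truly differ in response was not tested, and horse 4 is also the animal whose samples share a slide, so animal and slide cannot be told apart.

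TLR2 and CD68 went other ways. TLR2 had -0.32, 0.25 and 0.17 in horses 1, 2 and 4, an order of signs shown by 8.79% of probes. CD68 had 0.76, -0.44 and 0.48, an order shown by 4.96% of probes. The signs of all 7 probes in the 3 horses were the same after scaling to the median, after quantile normalization and after normexp background correction, although for TLR2 in horse 4 the change was then as small as 0.003 (quantile).

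The sign of the mean change depended on which animals and slides entered for every gene but CD68. Without horse 4, CD14 had a mean change of 0.82 (adjusted p = 0.11), ACP5 of 0.75 (adjusted p = 0.17) and TLR4 of 0.63 (adjusted p = 0.20), none of them called by limma. In that fit all samples before exercise lay on slide 2 and all those after it on slide 1. Exercise and slide thus cannot be told apart there. Without horse 2, TLR4 had -0.07 and ACP5 -0.03, CSF1R -0.0097, TLR2 -0.07 and CD14 0.01, and without horse 1 CSF1R had -0.03. Within slide 1, where the 3 samples after exercise can be set only against horse 4 before exercise, the changes were -0.30 for CD14, -0.04 for TLR4, -0.52 for ACP5, -0.05 for CSF1R, -0.08 for TLR2 and 0.61 for CD68, again with none called.

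Between the animals, CSF1R came nearest to a difference. With exercise in the model, its mean level was -0.83 in horse 1, -1.54 in horse 4 and -2.07 in horse 2, and limma's moderated F-test gave an unadjusted p of 0.011 and an adjusted p of 0.21. Horse 1 thus had 2.35 times the CSF1R signal of horse 2. On the whole array 70 of 29552 probes (0.237%) were called between horses, and 4573 (15.5%) had an unadjusted p under 0.05, so the value of CSF1R was not rare among probes. The other 5 genes had unadjusted p-values from 0.19 to 0.50 in this F-test. Mean levels of CD14 were 4.18, 3.24 and 3.79 in horses 1, 2 and 4, in the same order as CSF1R, and those of ACP5 were 1.20, 0.72 and 1.63, with horse 4 highest.

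Over the 6 arrays, CD14 and TLR4 had the highest Pearson r of any pair of the genes. Their brighter probes had a Pearson r of 0.91 (Spearman rho 0.83), and CD14 with the dimmer TLR4 probe had 0.93 (rho 0.89). For scale, the 2 probes of TLR4, which read the same transcript, had r = 0.92 with each other (rho 0.83). These are descriptions over 6 arrays that come as pairs from 3 horses and share the scaling of each array, so no p is given.

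By Pearson r, CD14 had 0.84 with CSF1R (rho 0.89, no lower than with TLR4) and 0.77 with ACP5. TLR4 had 0.71 with ACP5 (0.91 by its dimmer probe) and 0.69 with CSF1R, and CSF1R with ACP5 had 0.47. Across the 6 pairs of these 4 genes r thus ran from 0.47 to 0.91, while the 9 pairs that involve TLR2 or CD68 ran from -0.54 to 0.58. The lowest value was that of TLR2 with CD68. The split into these sets was made after the values were seen, and the median over all 15 pairs of genes was 0.27.

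The likeness among the 4 genes leaned on one sample. Without the array of horse 2 before exercise, which had the lowest CD14, TLR4, CSF1R and ACP5 of all 6, r was 0.79 for CD14 with TLR4, but 0.41 for CD14 with ACP5, 0.07 for TLR4 with ACP5 and -0.11 for CSF1R with ACP5. These values are for the brighter TLR4 probe. The dimmer TLR4 probe still had r = 0.64 with ACP5 without that array, and 0.91 over all 6 arrays. Leaving out any other single array kept r between 0.45 and 0.98 for the 6 pairs. Without the 2 arrays whose CD14 lay farthest from its median, CD14 had r = 0.63 with TLR4, 0.40 with CSF1R and 0.58 with ACP5. When each horse's own mean was subtracted, which leaves 3 free values, the 6 pairs lay between 0.87 and 0.998, another view of the shared order of signs. There TLR4 with ACP5 (0.998) and CD14 with CSF1R (0.99) stood above CD14 with TLR4 (0.92).

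**Figure D3:**
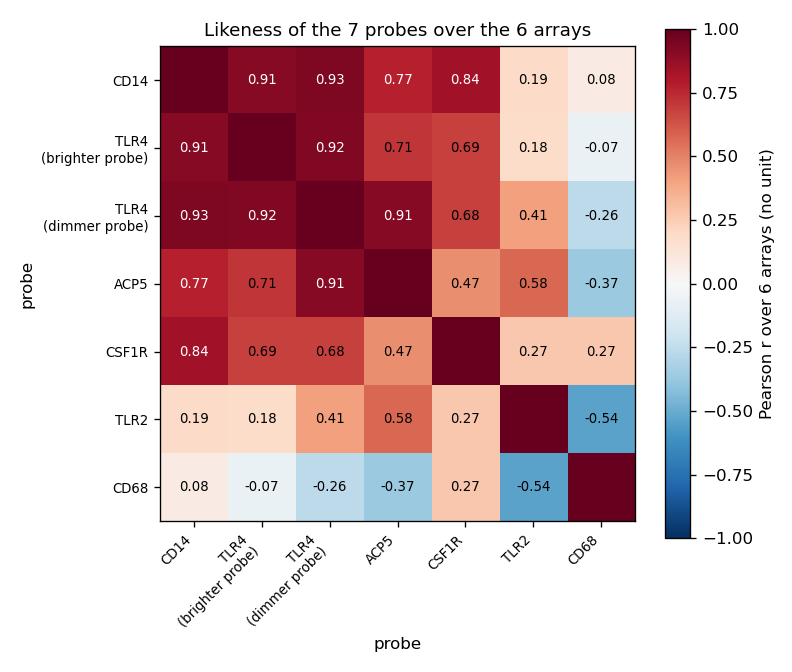
Pearson r between the levels of the 7 probes over the 6 arrays, printed in each cell and coloured from -1 (blue) to 1 (red). CD14, both TLR4 probes, ACP5 and CSF1R form a block from 0.47 to 0.93, and CD68 has negative values with TLR2, TLR4 and ACP5.

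Other probes on these arrays also had high values of r with the 6 genes, in shares that differed from gene to gene. Of the other 29350 probes, 5.34% had r of at least 0.8 with CD14, 5.03% with the brighter TLR4 probe, 17.0% with ACP5, 3.16% with CSF1R and 5.56% with TLR2, but only 0.32% with CD68. Ranked by r with CD14, the TLR4 probes stood at 167 and 286 of 29350, CSF1R at 1033 and ACP5 at 2003, against 13200 for TLR2 and 14940 for CD68. Ranked by r with the brighter TLR4 probe, its own second probe stood at 275 and CD14 at 371. By r with CSF1R, CD14 stood at 644, the TLR4 probes at 2024 and 2066 and ACP5 at 5716. The ranks were lower by r with ACP5, where the dimmer TLR4 probe stood at 2095, CD14 at 5587 and the brighter TLR4 probe at 7032. There TLR2, at 9661, stood ahead of CSF1R, at 11324.

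Among 550 other named genes, each read by its brightest probe, the closest to CSF1R was GM2A, the lysosomal cofactor of ganglioside breakdown, with r = 0.995. GM2A had levels of 2.05, 0.37 and 1.43 before exercise in horses 1, 2 and 4, and 2.61, 0.80 and 1.12 after. All 6 samples thus stood in the same order for both genes. GM2A was picked by its r with CSF1R on these same arrays, so the shared order is not a separate observation. PAM, which amidates peptides, followed with 0.95 and SPARC, a matrix protein also stored in platelets, with 0.93.

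**Figure D4:**
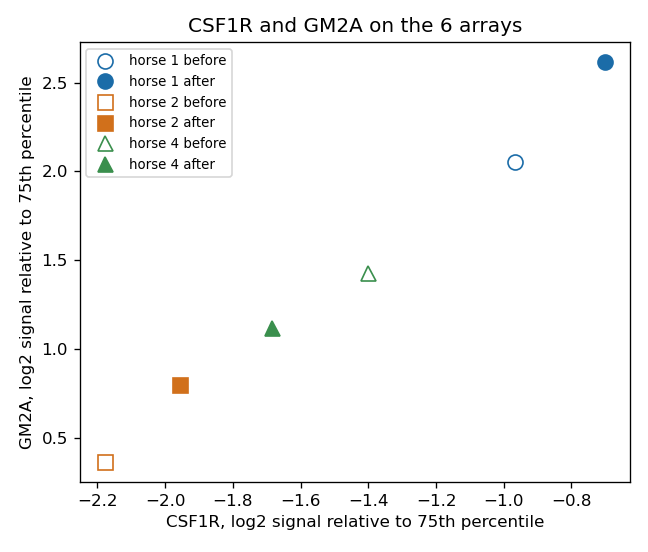
GM2A against CSF1R on the 6 arrays (log2 signal relative to the 75th percentile on both axes; open symbols before and filled symbols after exercise, one colour and shape per horse). The samples lie along one line, horse 2 at the low end and horse 1 at the high end, with r = 0.995. GM2A was picked by this r.

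The genes most like the other members were of varied kinds. Closest to CD14 were ARF2, a small GTPase of vesicle traffic (r = 0.94), FASLG, the death ligand of cytotoxic lymphocytes (0.93), and the collagen gene COL2A1 (0.89). The level of COL2A1 was low, from -5.90 to -5.26, and that of ARF2 ran from -4.43 to -3.25. Both were well above background on all 6 arrays. The other FASLG probes had r between 0.25 and 0.97 with CD14. Closest to TLR4 were SMPD5 (0.98), the elongin gene ELOA (0.93) and BTBD7 (0.91). Closest to TLR2 were CD1C, which presents lipid antigens on dendritic and B cells (0.96), the stem cell factor receptor KIT (0.96) and KLHL9 (0.94). The level of KIT was low too, from -5.47 to -3.87.

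Closest to ACP5 were FEN1, a nuclease of DNA replication (0.998, level -4.61 to -2.17), the cytokine TGFB1 (0.996) and the citrate synthase CS (0.99, level -4.66 to -3.10). CD68 had the loosest: CIAO2A, of iron-sulfur protein assembly (0.80), SLC11A1, the metal transporter of phagosomes in macrophages and neutrophils (0.71), and APOBEC3H, an antiviral deaminase (0.67). SLC11A1 had levels of 4.61, 5.26 and 4.56 before exercise in horses 1, 2 and 4, and 5.24, 5.08 and 5.34 after. Like CD68, it was higher after exercise in horses 1 and 4 and lower in horse 2. CIAO2A had that order too, whereas APOBEC3H was higher after exercise in every horse. These genes were picked by their r with CD68 on the same arrays, so a shared order is not a separate observation.

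Beyond CD14, TLR2 and TLR4, the arrays measured 8 of the other 44 listed genes of toll-like receptor signalling, and 0 of the 11 measured genes of the list passed in limma, with 0 at an unadjusted p under 0.05. Of the 8, 4 were higher and 4 lower in the mean, with a median change of -0.07. LY96, the partner that TLR4 needs to bind lipopolysaccharide, had positive changes throughout, 0.13 in horse 1, 0.37 in horse 2 and 0.59 in horse 4 (mean 0.36, SE 0.17, limma adjusted p = 0.75). In horse 4 it was thus higher while CD14 and TLR4 were lower. TLR9, the endosomal receptor for bacterial DNA, had 0.11, 0.44 and 0.09 (mean 0.21, SE 0.16, adjusted p = 0.77). TLR6, a dimer partner of TLR2, had negative changes in each animal, -0.12, -0.11 and -0.29 (mean -0.18, SE 0.15, adjusted p = 0.79). Thus 2 of the 11 genes were higher and 1 was lower in every horse, beside 17.3% and 11.5% of all probes.

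**Figure D5:**
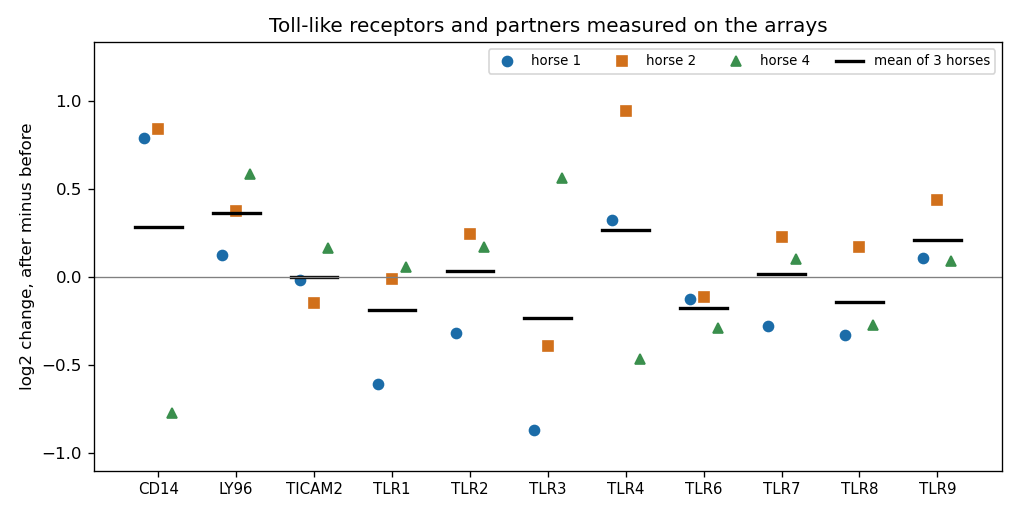
Log2 change after exercise of the 11 measured genes of toll-like receptor signalling in horses 1, 2 and 4 (points), with the mean of 3 horses as a black bar. LY96 and TLR9 lie above 0 and TLR6 below 0 in every horse, and the sign of the other 8 differs between horses; of all probes, 17.3% were higher and 11.5% lower in every horse.

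Genes that toll-like receptors switch on gave no call either. Of 32 listed, 16 were measured, with a median change of 0.11. In limma 0 of them were called, and 1, IL6, had an unadjusted p under 0.05. The 3 with the smallest p were IL6 (1.07, SE 0.37, adjusted p = 0.75), the chemokine CCL3 (0.47, SE 0.18, adjusted p = 0.75) and PTGS2 (-1.14, SE 0.53, adjusted p = 0.75). The IL6 probe was well above background on 3 of the 6 arrays. CCL3 had 0.26 in horse 1, 0.76 in horse 2 and 0.39 in horse 4, IL6 had 2.03, 0.28 and 0.90, and PTGS2 had -1.61, -2.16 and 0.36, with horse 4 of the other sign.

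Further genes of the monocyte lineage were few. Of 29 listed, 6 were measured, 3 of them members. In limma 0 of the 6 passed, and 1, TIMP1, had an unadjusted p under 0.05. TIMP1, an inhibitor of matrix proteases, had 0.49 (SE 0.15, limma adjusted p = 0.75) with nearly equal changes of 0.49, 0.53 and 0.45. CCR2, the chemokine receptor that marks classical monocytes, had 0.05 (SE 0.15), and the integrin ITGAX had 0.05 (SE 0.36), with 0.12, 0.87 and -0.84 in horses 1, 2 and 4. CCR2 and ITGAX lay outside the rule for named genes and are given because they complete the list, and 2 of the 7 ITGAX probes had the other sign.

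Beside ACP5, 2 of the other 31 listed genes of osteoclasts and lysosomes were measured, MMP9 (0.23, SE 0.16, adjusted p = 0.76) and MITF (-0.14, SE 0.42, adjusted p = 0.93). In MITF, a transcription factor of osteoclasts, the signs were reversed relative to ACP5, with -0.82, -0.63 and 1.03 in horses 1, 2 and 4. That order was shown by 19.5% of all probes. Of 22 genes of the CSF1R and related growth factor axis, CSF3 (-0.04, SE 0.17, adjusted p = 0.95) and KIT (-0.02, SE 0.33, adjusted p = 0.99) were measured beside CSF1R.

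The order of signs seen in CD14 and TLR4, which 24.1% of all probes had, also appeared in some markers of other cells. The 3 T cell markers measured, of 9 listed, had a median change of 0.23 in horse 1, 0.75 in horse 2 and -0.47 in horse 4, with a mean level from -1.71 to -0.18 before and from -1.04 to -0.65 after exercise. The 4 NK cell markers measured, of 8 listed, had 0.36, 0.31 and -0.35, with a mean level from 1.30 to 2.26 before and from 1.64 to 2.03 after. Gene by gene, 2 of the 3 T cell and 2 of the 4 NK cell markers had that order. The cytolytic granule gene GNLY instead had 0.80, 0.57 and 0.38 in horses 1, 2 and 4. The NK cell receptor NCR1 had -0.44, 0.16 and -0.63, and IL7R, the interleukin 7 receptor of T cells, -0.06, 0.77 and -0.74. These 3 genes are given because they depart from the order of their list. The 7 monocyte markers measured, of 18 listed and 6 of them members, had medians of 0.32, 0.25 and -0.28. Their mean level ran from 0.13 to 0.89 before and from 0.54 to 1.15 after. Of the 7, 4 had that order, all of them members. CCR2, the only marker of the 7 that is not a member, had 0.11, -0.06 and 0.10.

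The 2 platelet markers, of 6 listed, had medians of 0.05, 0.40 and -0.19 in horses 1, 2 and 4, but they disagreed. ITGA2B had the order of CD14 and TLR4, with 0.25, 0.83 and -0.23. SELP was lower in every horse, with -0.14, -0.03 and -0.15. The 3 neutrophil markers measured, of 12 listed, had medians of 0.15, 0.41 and 0.12, with a mean level from 1.47 to 2.96 before and from 2.37 to 2.75 after. They too disagreed. LTF had the order of CD14 and TLR4, with 0.38, 2.25 and -1.16. MMP9 was higher in every horse, with 0.15, 0.41 and 0.12, and FCAR had -0.09, 0.20 and 0.41. The 3 B cell markers, of 8 listed, had -0.17, -0.20 and 0.29, with a mean level from -2.58 to -1.97 before and from -2.43 to -2.23 after. The 2 haemoglobin genes, of 6 erythroid markers listed, had 0.91, 2.48 and 0.24. Their mean level in horses 1, 2 and 4 was 5.53, 1.27 and 7.67 before exercise and 6.44, 3.75 and 7.91 after. Horse 2 before exercise was thus the lowest sample by a wide margin, and it was also the lowest for CD14, TLR4, CSF1R and ACP5. The one dendritic cell marker of 5 listed, CD1C, had -1.01, 0.20 and 0.56, and the 2 of 6 for eosinophils and basophils -0.26, 0.16 and 0.50. In each of these cell type lists limma called 0 genes, with 1 NK cell and 1 haemoglobin gene at an unadjusted p under 0.05. All measured markers were well above background on all 6 arrays, and the part of changing cell proportions in the values of the 6 genes was not tested.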

How the data were processed

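Cy3-labelled total RNA of each sample was read on its own 1-colour Agilent horse array, per the labels. The authors' deposited value used here is the processed signal of a spot, an intensity from which Agilent Feature Extraction 10.10.1.1 had taken the background, per the file headers; arrays were not brought to a common scale there. From each log2 signal the log2 of its array's 75th percentile (43803 non-control spots) was subtracted. Outlier-flagged spots (67 to 169 per array) and 1417 control spots were left out, spots of 1 probe were averaged, and probes well above background on at least 3 of 6 arrays were kept (29571 of 43603).

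Probes were named by their RefSeq accession through a table of the assembly TB-T2T; the headers name another build, so no coordinate is given. A gene stands for its brightest probe.

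Changes were tested with limma 3.58.1 in R 4.3.3 (lmFit and eBayes, two-sided, horse as a block, Benjamini-Hochberg over all probes); SE are moderated. The same horse gave both samples, and same-numbered arrays deviated together from their group means (r = 0.36, 0.40 and 0.23 across probes). Genes named beyond the 6 are the 3 with the smallest p in each of 5 lists and the 3 most like each member by Pearson r. The members and lists were chosen with earlier results of these data known. Alternatives covered background correction (normexp with offset 50, on each spot's median pixel signal), scaling, filters, variance model, pairing, slide, and each horse or array left out. The fit was tested on simulated data.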

Additional observations from a re-analysis of the deposited data

How the results depend on the processing

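None of the 6 genes was called in limma in any alternative run. Over 22 alternatives CD68 kept its direction (0.02 to 0.62), CD14, TLR4 and ACP5 kept it in 17 and TLR2 and CSF1R in 15. These counts include settings that could not turn a sign. Another filter or variance model, or the fit without the horse block, leaves the change itself as it was. Keeping flagged spots also left the change of every gene the same. The cause of the reversals was not tested. TLR2 had -0.052 after quantile normalization. Leaving out a horse gave 0.01 to 0.82 for CD14, -0.072 to 0.63 for TLR4, -0.072 to 0.21 for TLR2, -0.032 to 0.24 for CSF1R and -0.028 to 0.75 for ACP5.

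Without the replicate block (horse not in the model) the changes were the same, with 0 probes called. In that fit, leaving out 1 array turned the sign of CD14 (-0.060) and CSF1R (-0.31) without horse 1 after exercise. Without horse 2 before exercise CD14 had -0.10, TLR2 -0.11, TLR4 -0.0035, CSF1R -0.26 and ACP5 -0.076, and without horse 4 after exercise TLR2 had -0.091. With slide and horse both in the model, where horse 4 alone carries the change, CD14 had -0.77, TLR4 -0.47, CSF1R -0.28 and ACP5 -0.50. With slide as the only block, and alike in slide 1 alone, CD14 had -0.30, TLR2 -0.077, TLR4 -0.037, CSF1R -0.047 and ACP5 -0.52.

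Counts over the whole array moved more. Without horse 4, or without its array before exercise, all samples before exercise lay on slide 2 and all those after it on slide 1. In those fits exercise and slide cannot be told apart. Probes called after exercise were 0 to 69 when a horse was left out (69 without horse 4) and 595 without the block and without horse 4 before exercise. They were 117 with slide and horse, 132 with slide alone and 122 in slide 1. Probes called between horses were 1 after quantile normalization, 1 with flagged spots kept, 2 without a filter and 164 with trended and robust variance, and 1 to 60 with a horse left out. The median r over the 15 pairs of genes was 0.26 as Spearman rho, 0.25 after quantile normalization, 0.41 without horse 4 before exercise and 0.068 within horses. All 7 probes were well above background throughout, and the 3 arrays a group limit the precision.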
